A study of Homo sapiens with 6 samples.

Results

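The 3 libraries labelled TOE1+ describe where nascent small RNAs end, and which bases have been added to them, in human cells that still hold the exonuclease TOE1. They are 3 of 6 samples in the series. The other 3 libraries come from the same line after TOE1 was degraded with 600 µM of an auxin hormone for 8 hours, and are not used here. Described are the 50 of 142 RNAs in the table that had at least 100 reads summed over the TOE1+ libraries. The line derives from HEK 293T-REx, a human embryonic kidney line, and carries TOE1 fused to a degron, a tag that lets auxin trigger the protein's destruction. All groups therefore carry the degron allele. Whether the line is 1 clone, and whether the TOE1+ cells received the solvent of the auxin, is not stated in the labels. The table holds no row for TOE1 itself, so its presence was not checked.

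Cells were fed 0.2 mM ethynyl uridine, a uridine analogue that marks newly made RNA, for 8 hours. RNA of 100 to 500 nt was gel-purified, depleted of ribosomal RNA, stripped of terminal phosphates, ligated at its 3′ end to an adaptor (AG10 in all 3 libraries) and then captured through the analogue. Each read marks 1 ligated 3′ end, so levels are given as RPM, reads per 1000000 reads of a library, and are not divided by gene length. They are shares of the captured RNA and do not measure the amount per cell.

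Small nuclear RNAs (snRNAs), the RNA cores of the spliceosome, are mostly made by RNA polymerase II, cut a little downstream of their final end and then trimmed. Most small nucleolar RNAs (snoRNAs), which guide chemical modification or cleavage of other RNAs, are released from introns of host genes and trimmed back to the proteins bound to them. RNA polymerase III stops in a run of T, which leaves its transcripts ending in U. Along these routes enzymes can add untemplated A or U to an RNA end, and exonucleases such as TOE1, which prefers A, can remove them. A short added A is a known feature of mature 7SL, 7SK and U2 RNA.

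The 50 RNAs fell into 9 lists by gene symbol. They were 4 of the table's 11 snRNAs of the Sm class (snRNAs that carry the ring of Sm proteins), both U6-type snRNAs, 2 of 3 snRNA-family genes named as pseudogenes and 2 of 3 snoRNAs with their own promoters (U3 and U13). Of the other C/D box snoRNAs, which guide ribose methylation, 5 of 19 were included, and of the H/ACA snoRNAs, which guide pseudouridylation, 22 of 65. A further 3 of 16 scaRNAs (guides that reside in Cajal bodies), 8 of 14 RNA polymerase III RNAs and 2 of 9 other rows completed the set. Just above the minimum stood SNORA80B and SNORD22 with 118 reads each and SNORA52 with 113. Just below it stood SNORA17B (ENSG00000280496) with 90, SNORA65 with 87 and SNORD118, the U8 snoRNA, with 83. Further below lay the U4 and U5 snRNAs, with 15, 16 and 11 reads in replicates 1, 2 and 3 for RNU4-2 and 13, 10 and 13 for RNU5 WT, so these spliceosomal RNAs are not described.

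The genomic sequence around the ends of the RNAs on which the results turn is shown first. Each line gives the last 20 bases of a gene as GENCODE 44 annotates it on hg38 and the 10 bases that follow, 5′ to 3′ on the strand of the gene. Capitals run to the deposited median 3′ end in TOE1+ cells, a position that may count an added tail. They start at box ACA in H/ACA snoRNAs (the sequence ACA near the 3′ end, a signature of the family), at box D in C/D snoRNAs and scaRNAs (CTGA in the DNA), and otherwise 5 bases before the end. The first set holds RNA polymerase III RNAs, in which the end can be read against the T run.
RN7SL1 (chr14:49586859-49586888, plus strand): catagcgagaccccgtCTCTTttgaacaat
RN7SL2 (chr14:49862540-49862569, minus strand): atagcgagaccccgtCTCTTttgcccccct
RN7SL3 (chr14:49853606-49853635, minus strand): catagtgagaccctgcCTCTTttgagttct
RN7SK (chr6:52995929-52995958, plus strand): atgtggcagtctgccTTTCTtttgacccat
AL162581.1 (chr6:52995931-52995960, plus strand): gtggcagtctgcctttCTTTTgacccatta
RN7SKP48 (chr4:85100804-85100833, plus strand): atgtggcagtctgccttTTTAAaaaaaaaa
RPPH1 (chr14:20343065-20343094, minus strand): tcagactactctcctccgcCCATTtttgga
RNU6ATAC (chr9:134164429-134164458, minus strand): gcatctaaccatcGTTTTtttttttttggt

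The 3 rows for 7SL, the RNA of the signal recognition particle, had deposited median ends of 1, 0 and 1 nt. On the genome all 3 positions are the last base of CTCTT, because the RN7SL2 model runs 1 base further than the other 2. Added bases may be counted in them: at least 1 added A was on 57% of RN7SL1, 59.5% of RN7SL2 and 39.8% of RN7SL3 reads. If they are counted, the templated part of these RNAs can stop upstream of that base. The next set holds U2 and U1 RNAs.
RNU2 WT (chr17:43233777-43233806, minus strand): ccaggaacggtgCACCCcctccggggatac
RNU2-2P (chr11:62841609-62841638, minus strand): ccaggaacggtgCACTCtcccttcggggag
RNU2-59P (chr10:101364835-101364864, minus strand): ccaggaacggtgCACTCgctccggggatac
RNU1 WT (chr1:16514112-16514141, minus strand): tgcgttcgcgctttcCCCTGactttctgga
RNVU1-31 (chr1:145465607-145465636, minus strand): tgcgttcgcgctttccCCTGAatttttgta

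The 3 U2 rows shown, 1 of U2 proper and 2 of genes named as pseudogenes, all had a deposited median end 3 nt before the annotated one. On the genome this position is the last base of CACCC or CACTC. Added bases may be counted in it: RNU2-59P had 2.43 of them per read, and its mean end less the tail was −4.49 nt. A further U2 gene model, AC024051.4, is not shown and had a deposited median end of 5.5 nt, downstream of its annotated end. The row RNU2 WT merges 12 genes with the same last 20 bases, and RNU2-1 stands for them. RNU1 WT merges 10 genes, of which 9 share the last 20 bases shown for RNU1-1. The last set shows snoRNAs and a scaRNA, chosen for the distance from their box to the end.
SNORA7A (chr3:12840302-12840331, minus strand): gaagacactctgcgACAGTGttcagtccct
SNORA48 (chr17:7574828-7574857, plus strand): ttcatgccttggacACATAGgtttccttta
SNORA71A (chr20:38427299-38427328, minus strand): aaccctgaagctttcacACAACTcctgttg
SNORA77B (chr22:20126507-20126536, plus strand): agctccctggggacACAGgtgcttcctggg
SNORA51 (chr20:2655179-2655208, plus strand): ttgtgaatgggggaACATAGAattgaggaa
SNORA44 (chr1:28580371-28580400, minus strand): cactcagctttcctaTAATGtttcaggacc
SNORD10 (chr17:7576933-7576962, plus strand): agtctttgtactCTGAGAGCAgactacttg
SCARNA2 (chr1:109100593-109100622, plus strand): tcgaggcgattCTGATCTGGgcacggccac

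SNORA7A lies in an intron of RPL32, and SNORA48 and SNORD10 lie in introns of SENP3-EIF4A1. Of the 50 RNAs, 30 lay by position within an intron of another annotated gene, among them 21 of the 22 H/ACA snoRNAs. The count also holds snRNA rows and a row for the RNA of the signal recognition particle. It therefore does not show that an RNA is released from the intron. SNORA50C was the exception and lies in an exon of the snoRNA host gene SNHG25.

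The libraries held 57078, 34581 and 38515 reads, of which the 50 RNAs took 97.9%, 97.5% and 97.9%. A single read was worth 17.5 to 28.9 RPM. Whether the libraries stem from separate cultures is not stated in the labels, so SDs measure only their spread, which may be technical. A chi-square test of the counts found every pair of libraries to differ by more than sampling noise, with p = 4.84e-235 for replicates 2 and 3, so none was treated as a repeat of another. The test counts reads as independent and covers counting error only, so PCR copies can enlarge these differences. Over the 46 RNAs left after 4 rows described next, p ran from 5.03e-174 to 8.61e-30. Tests between conditions were not made, because all 3 libraries belong to 1 condition.

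In 3 families, 4 rows of overlapping or similar gene models had very different reads in replicate 1 than in replicates 2 and 3. In RMRP the reads changed rows, while in 7SK and U2 a further model had reads mainly in replicate 1. Of the rows for the RNase MRP RNA, RMRP ENSG00000269900 had 0, 1985 and 2397 reads and the row ENSG00000277027 had 2645, 160 and 222. Summed, RMRP took 4.63%, 6.2% and 6.8% of the reads, a much smaller spread than that of either row. For 7SK, AL162581.1 had 3533, 0 and 0 reads and RN7SK, whose gene lies within AL162581.1 on the same strand, had 242, 202 and 201. The sum of these 7SK rows was 3775, 202 and 201 reads, so it did not even out. AC024051.4, a U2 gene model at chr17:43290291-43290481, had 5602, 261 and 0 reads, beside 9459, 6957 and 5574 for RNU2 WT. Summed, these U2 rows took 26.4%, 20.9% and 14.5% of the reads, so this sum did not even out either. The authors' assignment of reads that fit several gene models is not given in the sources used here. Its part in these differences was not tested. Means of these 4 rows over libraries are therefore not used as levels.

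RNA polymerase III RNAs, listed here without AL162581.1 and the U6-type RNAs, made up 52.9% ± 8.41 (SD, n = 3) of the reads. Counting AL162581.1, which had reads in replicate 1 only, gave a mean of 54.9%. Within the class 7SL dominated, with 32%, 33.8% and 43.2% of the reads in replicates 1, 2 and 3. RN7SL1 had 212867, 228160.0 and 292354 RPM and was the most abundant row in each library. RN7SL2 followed with 105347, 108875 and 137790.5, while RN7SL3, the remaining 7SL gene model, had only 1717, 1157 and 1454. These genes are close copies, so the split of reads among them is uncertain. RPPH1, the catalytic RNA of RNase P, which cuts the leader from tRNA precursors, had 80697, 105607 and 112502.

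The Sm class held 20.6% ± 3.26 (SD, n = 3) of the reads, most of it U2. RNU2 WT, which pairs with the intron branch point, had 165721, 201179.8 and 144723 RPM. RNU1 WT, which recognises the 5′ splice site, had 26139.7, 31289 and 23861, below U2 in every library. The U1 variant gene RNVU1-31 had 5711, 4656 and 4180.2. RNU12, the branch-point RNA of the minor spliceosome, had 3083, 3759 and 3479. The gene RNU2-2P, despite its pseudogene symbol, reached 17012, 20329 and 16928 RPM, and RNU2-59P 4099.7, 5523 and 4674. Reads of such U2 copies may not be separable from each other or from U2 where the sequences are alike. Up to their median end the bases shown above are the same in RNU2-2P and RNU2-59P, while RNU2 WT has CACCC in place of CACTC.

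The U6-type RNAs took 1.33% ± 0.14 (SD, n = 3). RNU6ATAC, the U6 counterpart of the minor spliceosome, had 8515, 11249 and 10489 RPM and lay above RNU6 WT in every library, which had 3259, 3268 and 3168. At 107 nt the annotated U6 gene lies close to the lower edge of the gel slice, and the part of the size selection in its level was not tested.

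Among the snoRNAs, SNORD3 (U3, needed to cleave the ribosomal RNA precursor) led with 41172, 50346 and 36713 RPM. SNORD13 (U13, linked to acetylation of the small-subunit ribosomal RNA) had 2575, 4714 and 3375. The 22 H/ACA snoRNAs together took 7.87% ± 1.08 (SD, n = 3). SNORA7A led them with 13560.4, 17553 and 18097 RPM. SNORA73B and SNORA73A, the U17 snoRNAs that act in ribosomal RNA cleavage and lie in introns of RCC1, had means of 10315 ± 1406 and 9661 ± 1417 (SD, n = 3). The remaining 19 ran from 861 ± 159.8 (SNORA52) to 4981 ± 886 (SNORA10). The 5 other C/D snoRNAs took 1.84% ± 0.338 (SD, n = 3). Among them SNORD10 at 9537 ± 1748 and SNORD17 at 5219.7 ± 1154 RPM lay above SNORD88A, SNORD88C and SNORD22. The annotated genes of SNORD88A and SNORD88C are 91 nt long, below the gel slice. That of SNORD13 is 104 nt long, close to its lower edge. The part of the size selection in these levels and in the share of the C/D snoRNAs was not tested. The 3 scaRNAs, SCARNA12, SCARNA10 and SCARNA2, took 0.758% ± 0.0998 (SD, n = 3).

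**Figure D1:**
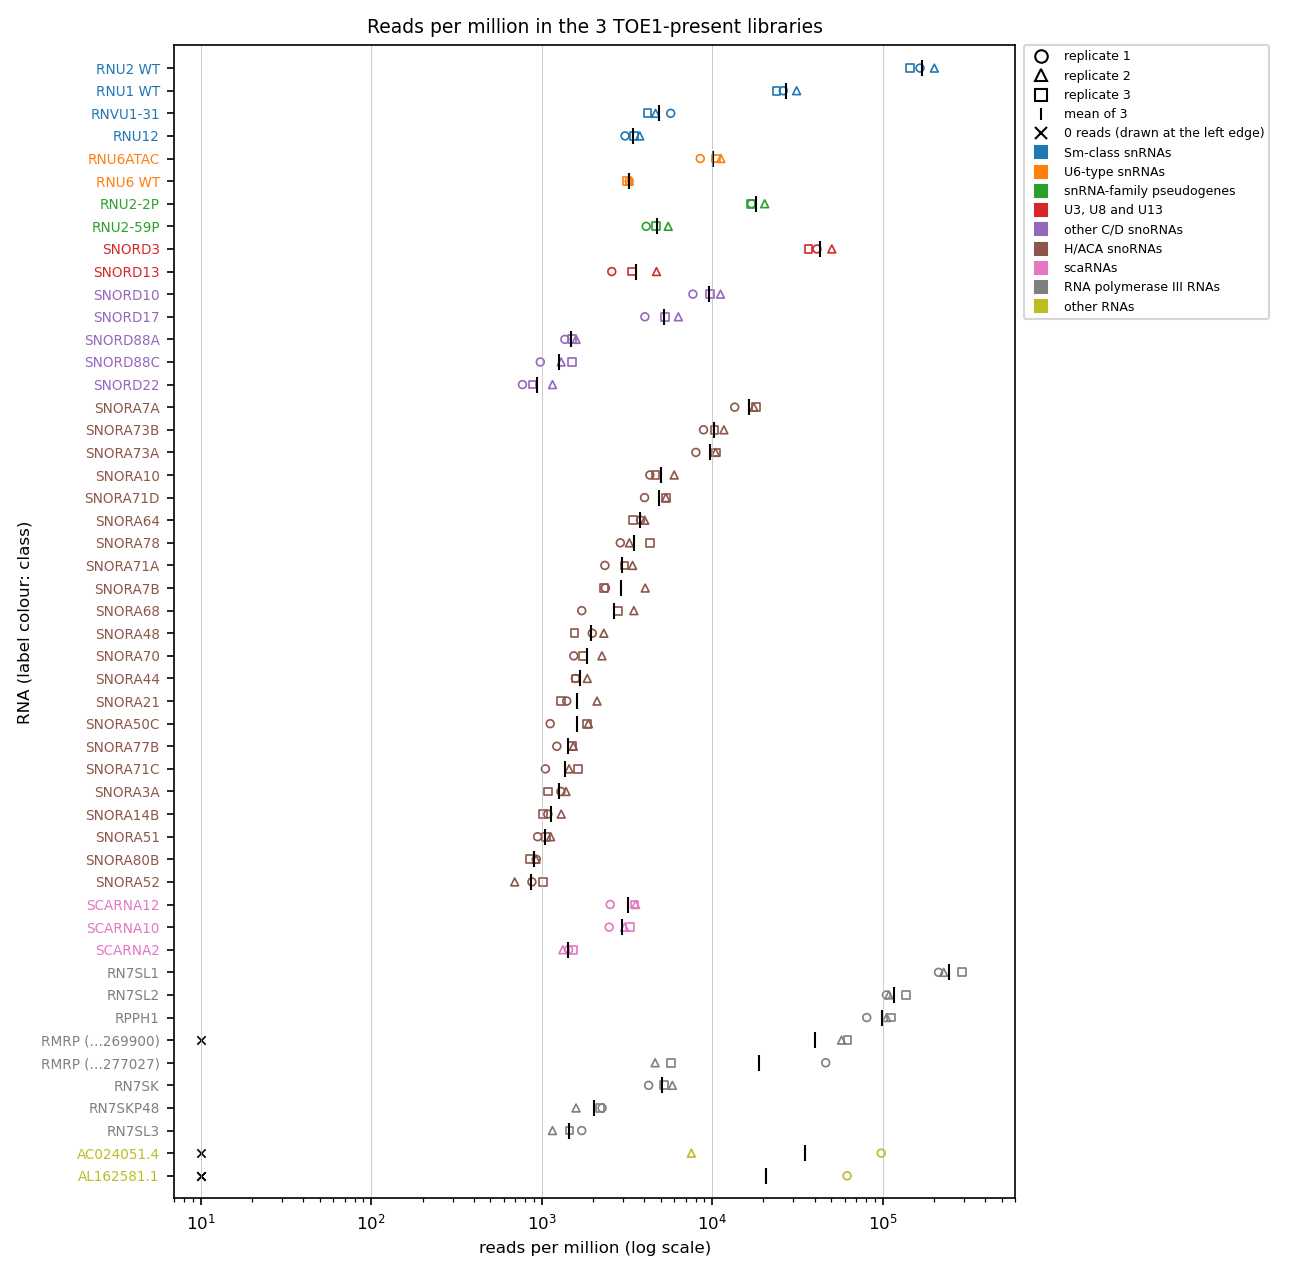
RPM (reads per 1000000 reads, horizontal axis, log scale) of the 50 RNAs, grouped by class, in TOE1+ replicates 1 (circles), 2 (triangles) and 3 (squares), with the mean of 3 as a bar and libraries with 0 reads as crosses at the left edge, off the scale. The 3 libraries lie close together for most RNAs and far apart for AC024051.4, AL162581.1 and the 2 RMRP rows.

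Outside these 4 rows the coefficient of variation over the libraries had a median of 16.2% and ran from 1.71% (RNU6 WT) to 34% (SNORA7B). With these 46 RNAs ordered by mean level, 8 of 45 neighbouring pairs had library values that did not overlap. In these 8, RN7SL1 lay above RNU2 WT, RNU2 WT above RN7SL2, RPPH1 above SNORD3, SNORD3 above RNU1 WT, RNU1 WT above RNU2-2P, SNORA7A above SNORA73B, SNORD10 above SNORD17 and RNU2-59P above SNORA64. The other 37 pairs of neighbours had library values that overlapped. Values can overlap although the order is the same within each library, as for RN7SL2, which lay above RPPH1 in every library. Most RNAs rest on few reads: the median over the 50 was 440 reads, and 12 had 100 to 199.

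End positions come next. Per the file headers the authors deposited, for each RNA in control cells, the mean and the median position of the 3′ end within a window from −10 to 50 nt. Position 0 is read here as the annotated end and positive values lie downstream. These are values for the condition, so no spread over libraries can be given. The headers do not say whether an untemplated tail is counted in the position. If it is, the templated part of an RNA can stop upstream of the deposited end, also where a median is read on the genome. Where it matters, the mean end is also given less the mean tail length.

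Most RNAs ended at or just past their annotated end. The deposited mean end lay within 1 nt of position 0 in 20 of 50 RNAs, further downstream in 26 and further upstream in 4. The deposited median end was exactly 0 in 28, positive in 14 and negative in 8. In 45 of 50 RNAs the mean lay downstream of the median, by 0.856 nt in the median RNA. With the mean tail subtracted this held in 19 of 50, so the count depends on whether the deposited position includes the tail. The window in which ends were scored also reaches further downstream. Over the 50 RNAs the median of the mean ends was 1.09 nt, and less the tail it was −0.0328 nt.

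Among the Sm-class RNAs the deposited mean ends were 2.81 nt for RNU12, 2.23 nt for RNVU1-31, 1.6 nt for RNU1 WT and −0.283 nt for RNU2 WT. Their median ends were 1, 1, 0 and −3 nt. The end of U2 relative to its annotation thus stood apart from the other 3, and the U2 pseudogene rows shared its median of −3 nt. Their deposited means differed: 0.801 nt in RNU2-2P, the widest gap between mean and median of the 50 RNAs, and −2.06 nt in RNU2-59P, the lowest mean of all. Less the tail these means were −0.495 and −4.49 nt. For U1 the median end of RNU1 WT, read on RNU1-1, fell on the G before a genomic A, and that of RNVU1-31 on the A itself.

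AC024051.4 had the highest deposited mean end of all, 4.67 nt, with a median of 5.5 nt. The authors' value for it rests on replicates 1 and 2 only, of which the second had 261 reads. RPPH1 followed with a mean of 4.49 nt and a median of 4 nt. Less the tail their order turned, with 3.35 nt for AC024051.4 and 3.86 nt for RPPH1. As the sequence above shows, this places the end of RNase P RNA inside the T run that follows its annotated end. RNU6ATAC also ended in a T run, but before the annotated end, with a deposited mean of −1.67 nt and a median of −2 nt. Less the tail its mean was −3.1 nt. RNU6 WT had a median of 0 nt and a mean of 0.208 nt, or −1.88 nt less the tail. RN7SK had a median of 0 nt and a mean of −0.847 nt (−1.9 nt less the tail), and AL162581.1 a median of 1 nt. Since the AL162581.1 model runs 2 bases further, these median ends lie 3 bases apart in the same T run on the genome. Both RMRP rows had a median of 0 nt, that of ENSG00000269900 from replicates 2 and 3 only.

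SNORD3 and SNORD13 had median ends of 0 nt and deposited means of 0.369 and 1.73 nt. No sequence is shown for them. The other C/D snoRNAs held the remaining low values: the deposited mean end was −1.57 nt in SNORD88A and −1.14 nt in SNORD88C, both genes with a median of −2 nt. CTGA was found within the last 15 bases of 9 RNAs, namely the 5 C/D snoRNAs, the 3 scaRNAs and SNORD13, and in 0 of the other 39. The median end lay 5 nt after it in 6 of the 9 (SNORD10, SNORD88A, SNORD88C, SNORD22, SCARNA10 and SCARNA2), 3 nt after it in SNORD17 and SCARNA12 and 2 nt after it in SNORD13. Counted from box D the low positions of the SNORD88 genes therefore matched the end of SNORD22, whose median was 0 nt relative to its annotation.

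**Figure D2:**
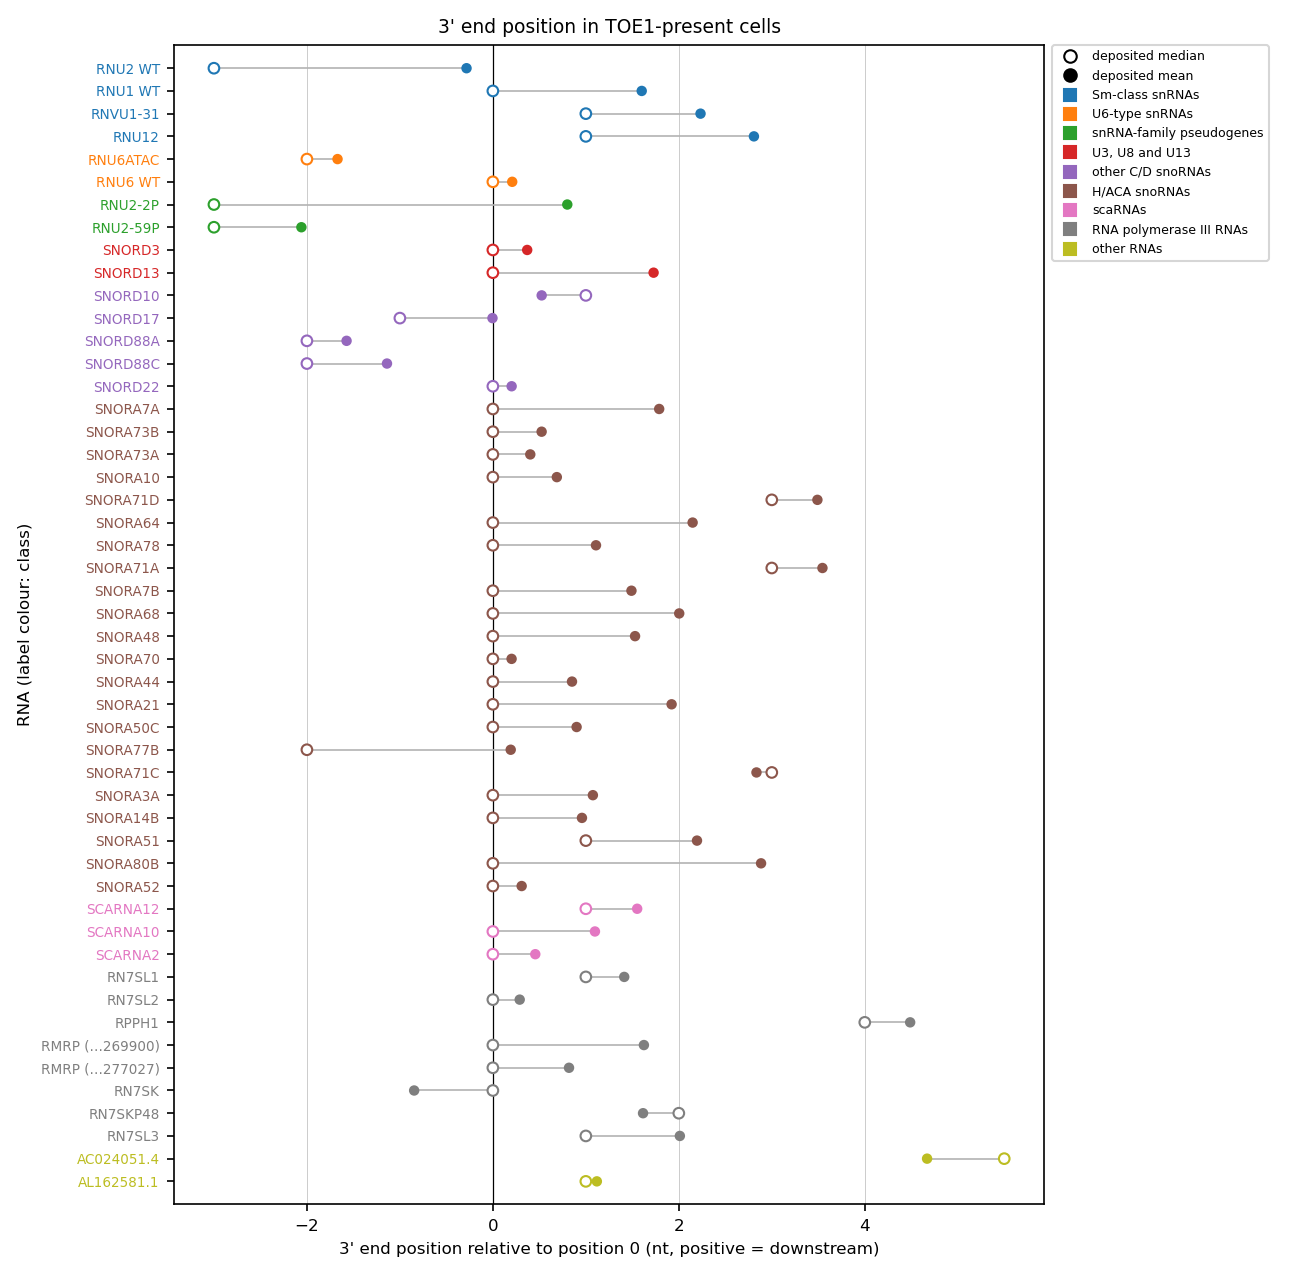
Deposited median (open circles) and mean (filled circles) 3′ end position in TOE1+ cells, in nt from position 0 on the horizontal axis, for the 50 RNAs grouped by class. The median lies at 0 in 28 RNAs, and the mean lies to its right in 45.

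Most H/ACA snoRNAs ended at the same distance from box ACA. ACA was found within the last 10 bases, on the strand of the gene, in 21 of 22; SNORA44, whose annotated gene ends TAATG, was the exception. In 19 of the 21 the deposited median end lay exactly 3 nt after ACA. This included SNORA71A, SNORA71C and SNORA71D, whose median end was 3 nt past the annotated end: in these 3 the annotation stops at ACA itself, while in the other 18 it stops 3 nt after it. The exceptions were SNORA77B, which ended 1 nt after ACA, and SNORA51, which ended 4 nt after it on a genomic A. Outside the H/ACA list, ACA stood within the last 10 bases of 1 of 26 RNAs (SCARNA12), and of 18 of 68 single-gene rows of the whole table (26.5%). These 68 rows include scaRNAs, so the share is not a background rate for RNAs that lack the box.

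Mean ends were less uniform. In H/ACA snoRNAs they ran from 0.192 nt in SNORA77B to 3.54 nt in SNORA71A relative to the annotation. Counted from ACA, the rounded deposited mean lay at 3 nt in only 6 of 21, and in 13 of 21 once the mean tail was subtracted. SNORA80B had the widest gap between mean and median in this list, with a mean of 2.88 nt on a median of 0 nt from 118 reads. The scaRNAs had deposited mean ends of 1.55 nt (SCARNA12), 1.1 nt (SCARNA10) and 0.456 nt (SCARNA2).

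**Figure D3:**
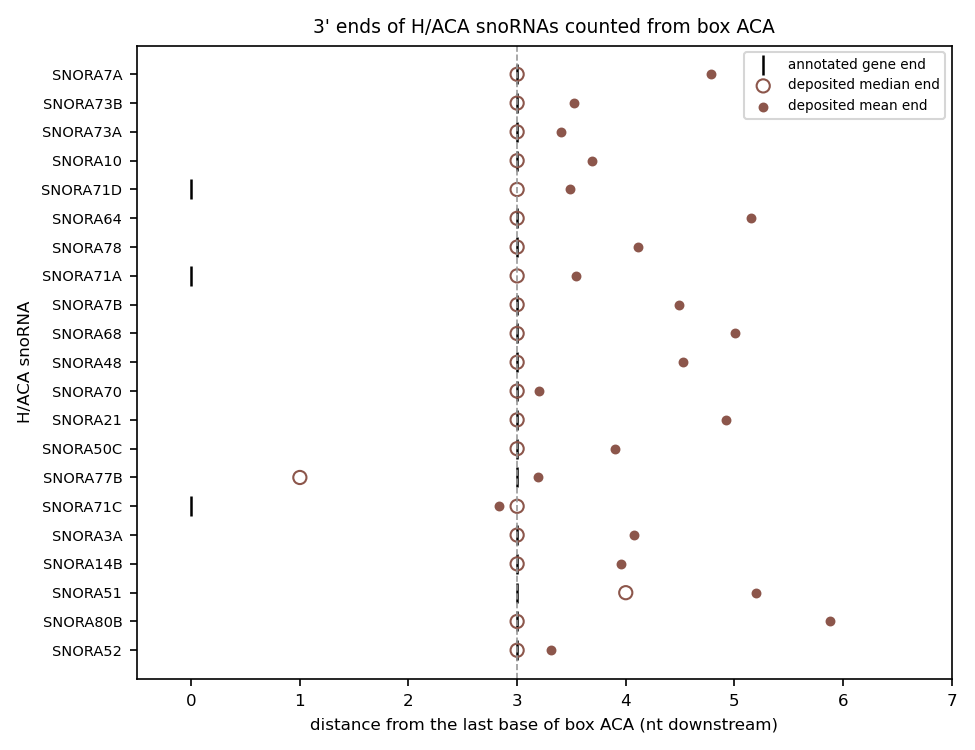
Distance in nt (horizontal axis) from the last base of box ACA to the annotated gene end (bars), the deposited median end (open circles) and the deposited mean end (filled circles) in 21 H/ACA snoRNAs, in order of reads. The median lies on the dashed line at 3 nt in 19, also in the 3 SNORA71 genes whose annotation ends at 0.

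A was the most frequent added base in most RNAs, but other bases were common too. Over the 50 RNAs A made up a median of 54.2% of the added bases, from 8.36% to 91.8%. Among the other letters G was the most frequent in 44 RNAs. The shares below cover only tails of A, of U and of both. Per the file headers the authors deposited the share of reads whose untemplated tail is 1 A, 1 or more, 2 or more and 3 or more A, the same for U, and the share with A and U mixed. In low-read rows these shares equalled the unweighted mean of the libraries' own shares (32 of 32 rows checked, within 1e-06) and not the pooled share (3 of 32), so no counting interval can be given for a mean over several libraries. Where a share is 0, a count of 0 allows up to 3 reads of the total, from 0.00958% in RN7SL1 to 2.65% in SNORA52. Such limits cover counting error only, since PCR copies are not independent molecules.

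A tails exceeded U tails in 49 of 50 RNAs, and A was the most frequent tail base in 48, the exceptions being RNU2-59P and RN7SKP48. The deposited share of reads with at least 1 added A had a median of 18.8% over the 50 RNAs, was above 30% in 12 and below 10% in 7. The 5 highest were all RNA polymerase III transcripts or their gene models: RN7SL2 with 59.5%, RN7SL1 with 57%, RN7SK with 46.9%, AL162581.1 with 45.2% and RNU6ATAC with 44.7%. Since AL162581.1 had reads in 1 library only, its share is 1597 of 3533 reads, with a 95% Wilson interval of 43.6% to 46.8%. RN7SL3 had 39.8%, below the other 7SL rows, on 194 reads.

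In 7SL these tails were almost always a lone A. RN7SL1 carried exactly 1 A in 53% of its reads, 2 or more in 4.01% and 3 or more in 0.213%. RNU6ATAC was alike, with 41.6% and 3.03% in the first 2 of these. RN7SK held longer tails as well, with 2 or more A in 11.5%. The 2 RMRP rows had 29.3% (ENSG00000269900) and 14.7% (ENSG00000277027). RPPH1, next to RN7SL2 in the order of levels, had an A tail on only 9.99% of reads.

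Sm-class RNAs lay on both sides of the median of all RNAs: the deposited share with at least 1 A was 27.3% in RNU12, 20.7% in RNU2 WT, 17.7% in RNU1 WT and 17.6% in RNVU1-31. They differed in tail length. Tails of 3 or more A were on 5.05% of the reads of RNVU1-31, 3.54% of RNU12, 1.85% of RNU1 WT and 0.422% of RNU2 WT. The U2 pseudogene rows were among the least A-tailed RNAs, with 4.92% for RNU2-2P and 2.36% for RNU2-59P, although their deposited median end had the same position as that of U2. Between U3 and U13 the contrast was wide, with 4.12% in SNORD3 and 31.3% in SNORD13.

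Longer A tails were carried by a few RNAs. In 7 RNAs more than 5% of reads had 3 or more A, and 5 of them were H/ACA snoRNAs, a list that makes up 22 of the 50: SNORA48 (16.8%), SNORA7B (10.5%), SNORA44 (10.2%), SNORA7A (9.82%) and SNORA64 (6.2%). The other 2 were SCARNA12 (6.39%) and RNVU1-31. In SNORA48 tails of 3 or more A were 54.6% of all its A tails, against 0.374% in RN7SL1. The H/ACA list was not uniform: SNORA73B, SNORA73A, SNORA71A, SNORA70, SNORA71C and SNORA3A had A tails on 11.7% to 23.4% of reads, and a deposited share with 3 or more A of at most 0.0656%. That share was 0 in all of them but SNORA73B, which their depth allows to be up to 0.245% in SNORA73A and up to 1.83% in SNORA3A. All 5 other C/D snoRNAs had 0 reads with 3 or more A, which their depth allows to be up to 0.25% in SNORD10 and up to 2.54% in SNORD22. Their shares with at least 1 A ran from 8.4% (SNORD22) to 18.3% (SNORD88A). SNORA7A and SNORA7B, near-identical copies in different host genes, were alike in this: 2 or more A stood on 18.2% and 18.9% of their reads, and both end in the same 30 bases of gene and flank, so their reads may not be separable.

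**Figure D4:**
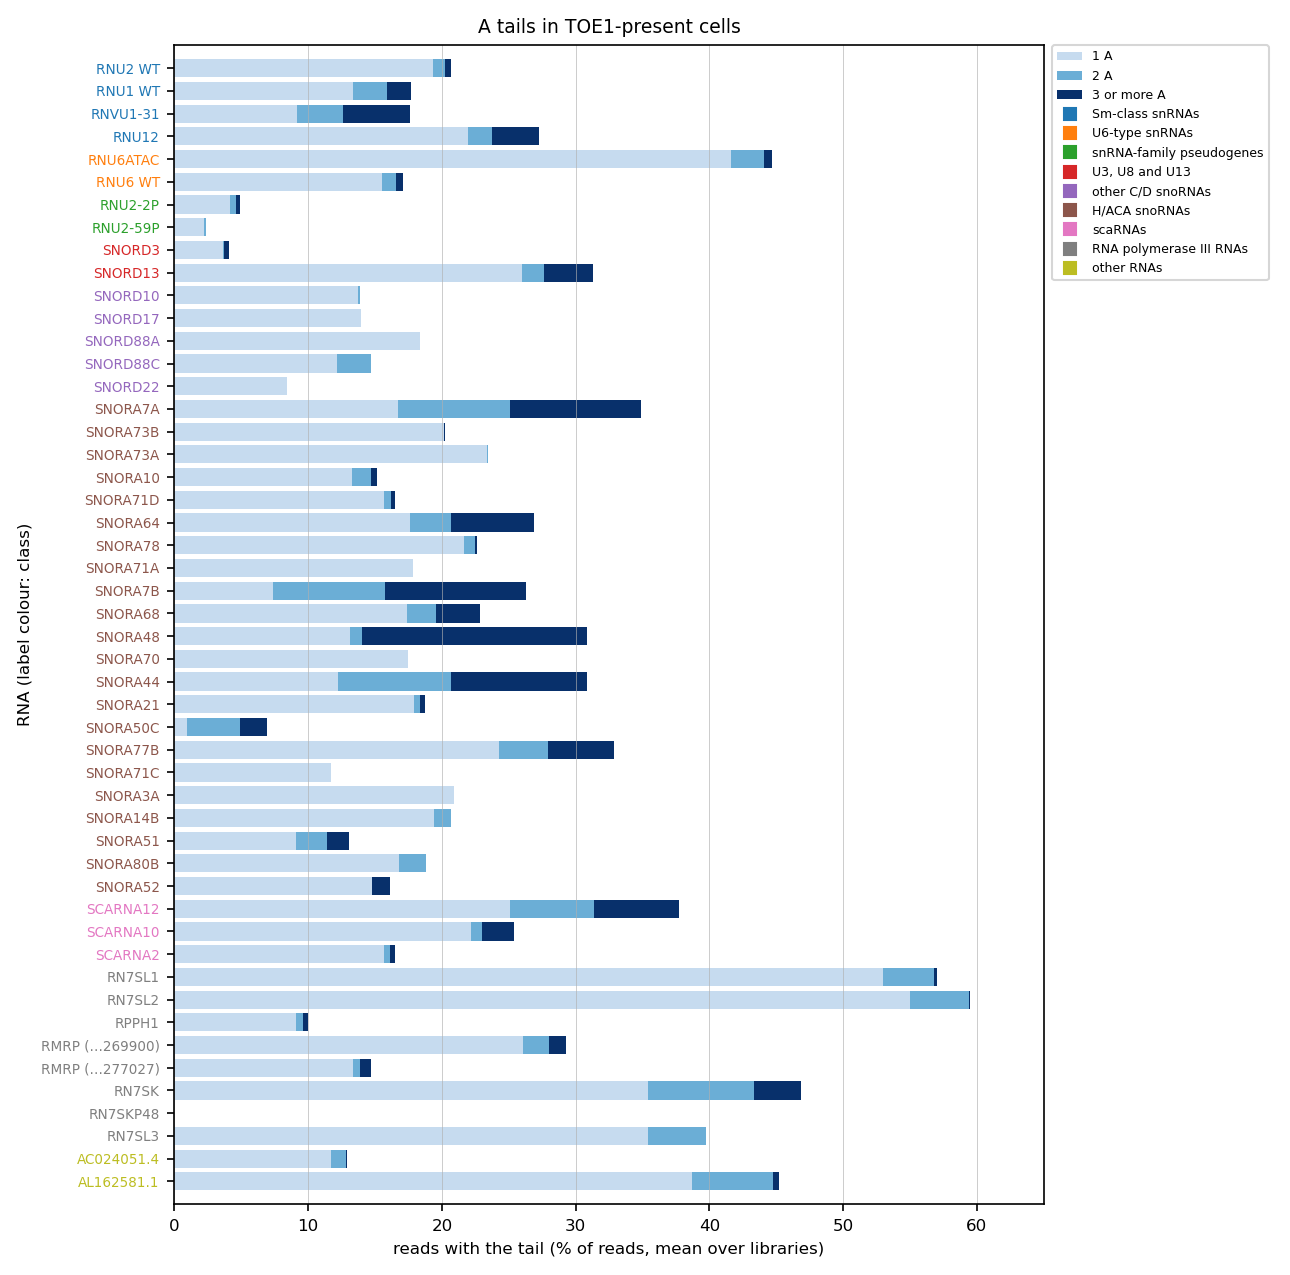
Deposited share of reads (%, horizontal axis) with an A tail of 1 (light), 2 (middle) or 3 or more A (dark) in TOE1+ cells for the 50 RNAs grouped by class. The longest bars are those of RN7SL2 and RN7SL1 and are almost wholly light, while SNORA48, SNORA7B, SNORA44 and SNORA7A have the longest dark parts.

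An added A cannot be told from a templated one where the genome continues with A. This was so directly after the median end in RNVU1-31, RN7SKP48, SNORA50C and SNORA51. It also held for 8 of the 10 genes merged in RNU1 WT and 6 of the 13 found for RNU6 WT, which are left out of the next comparison. In those 4 RNAs the deposited share with exactly 1 A ran from 0 to 9.19%, and it ran from 2.22% to 55% (median 17.6%) in the 41 RNAs followed by another base. The share of 0 was that of RN7SKP48, a 7SK pseudogene followed by a genomic run of A, in which A and U tails were both 0, allowing up to 1.12%. Its deposited tail nevertheless held 2.32 U and 0.947 C bases per read, the most U of any RNA. Less the tail its mean end was −1.96 nt, upstream of that run, and whether templated A bears on its share of 0 was not tested.

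U tails were rare, and the 5 highest shares were those of U2 and U1 family rows. The deposited share of reads with at least 1 added U was 0 in 24 of 50 RNAs, with a median of 0.0708%. It was above 2% in 4 RNAs: RNU2 WT (2.89%), AC024051.4 (2.43%), RNVU1-31 (2.17%) and RNU2-59P (2.08%). RNU2-2P came next with 1.65%. All 4 rows of U2 type were thus among the 5 highest, at read numbers from 605 to 21990. Reads of U2 copies may not be separable, so these rows need not be independent of each other. The value of AC024051.4 rests on replicates 1 and 2 only, with 5602 and 261 reads. RNU1 WT had 0.651% and RNU12 0.189%. In RNU2-59P, where A tails were scarce, U tails (2.08%) were close to A tails (2.36%), and its tail held 1.22 C bases per read, more than of any other letter.

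Of the H/ACA snoRNAs, 15 of 22 had 0 U tails, as had all 3 scaRNAs and 3 of 5 other C/D snoRNAs. RN7SL1 and RN7SL2, with the most A tails, had U tails on 0.0874% and 0.151% of reads. A U that matches a T of the genome cannot be counted as added, and T followed the median end in 17 RNAs; their median deposited U share was 0.0874%, against 0% in the 28 followed by another base.

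Tails that mix A and U were rarer still, at 0 in 25 of 50 RNAs and above 1% in 4. These were RNVU1-31 (2.58%), RN7SK (1.71%), RNU12 (1.13%) and SNORA7B (1.11%), and RNU2-59P came next with 0.819%. RNU6 WT had 0.726% and RNU6ATAC 0.57%, both above their share of U tails (0.474% and 0.237%). RNVU1-31 and RNU2-59P were among the 5 highest for both U tails and mixed tails. In RNU2 WT mixed tails were on 0.418% of reads, well below its U tails.

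**Figure D5:**
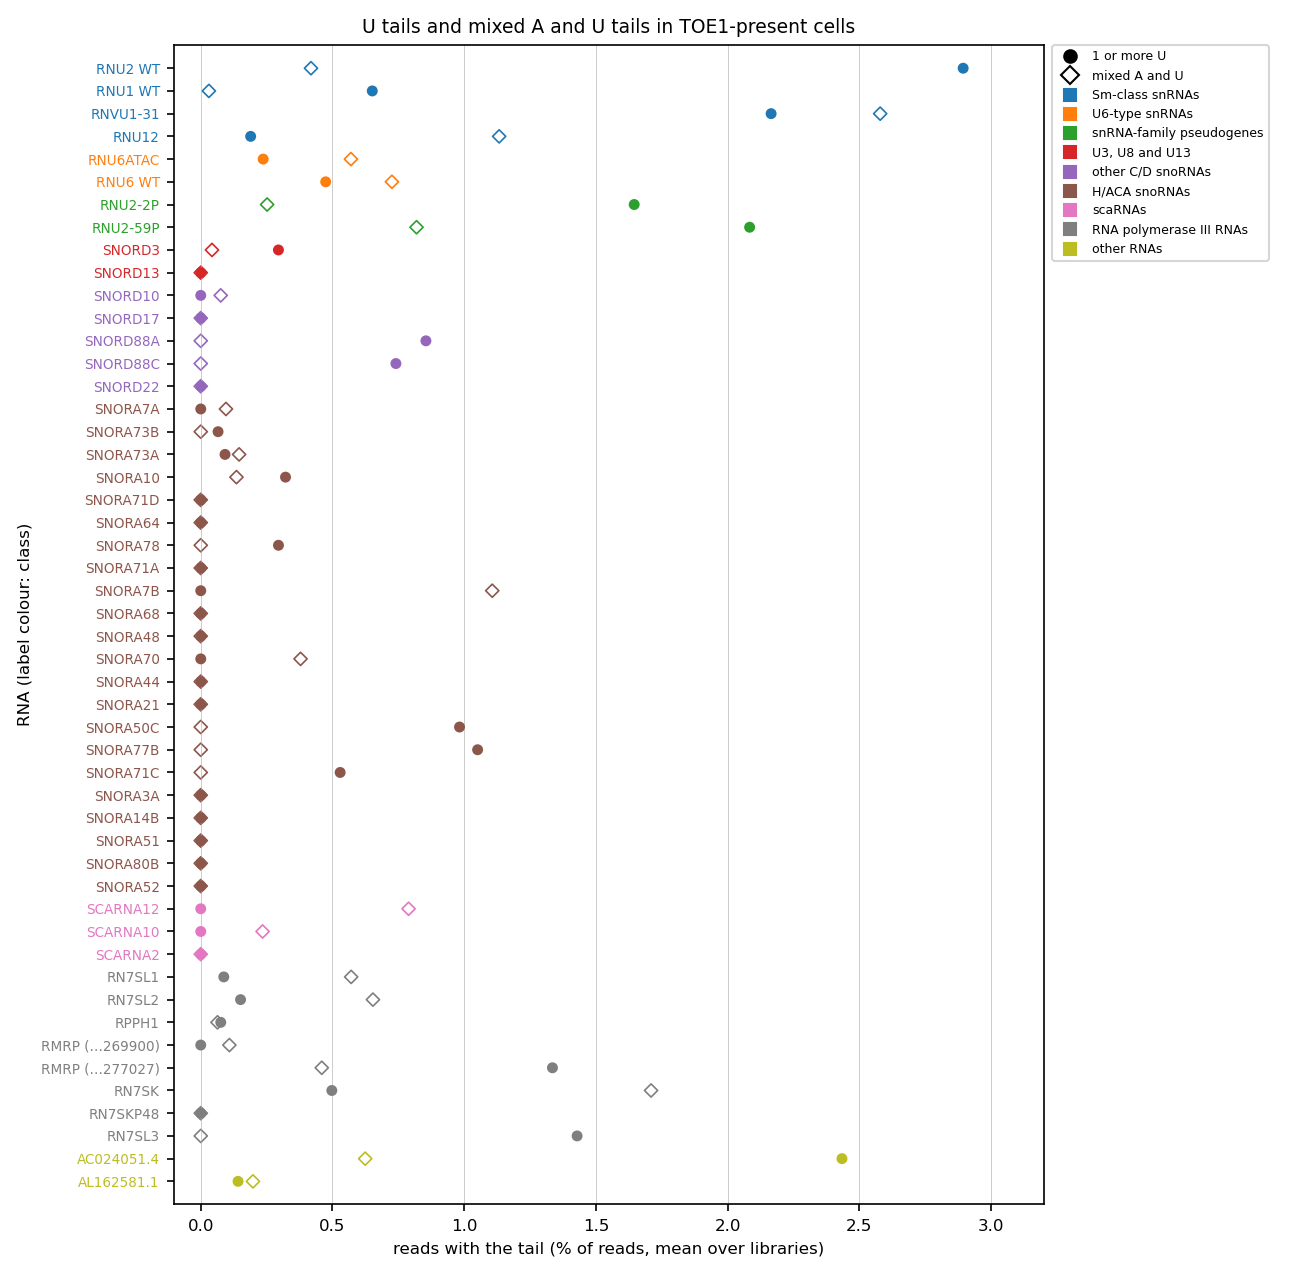
Deposited share of reads (%, horizontal axis) with 1 or more added U (filled circles) and with mixed A and U (open diamonds) in TOE1+ cells for the 50 RNAs grouped by class. Circles of RNU2 WT, AC024051.4, RNVU1-31 and RNU2-59P lie above 2%, and 24 circles and 25 diamonds lie at 0.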

How the data were processed

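Small RNA 3′ ends were sequenced in 3 TOE1+ libraries of 57078, 34581 and 38515 reads. The authors deposited 1 table of 142 RNAs. Per the file headers it gives raw read counts per library without normalization. For control cells it gives 3′ end positions in nt and tail composition as a score of untemplated bases per read, which the authors deposited as means over libraries. Tail shares were deposited as fractions of reads and are printed as percentages. Per the submitters' processing notes reads were aligned with STAR 2.7.8a, with hg38 named as the build. An annotation, a tail caller, a rule for multi-copy genes and whether molecular identifiers were used were not given in the sources used here. Capture through the uridine analogue was not corrected for the number of uridines in an RNA.

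Counts were divided by the library total over all rows and given per 1000000 (RPM), with the mean and SD over 3 libraries. RNAs with at least 100 reads in sum were kept and assigned to classes by symbol. The members and lists were chosen with earlier results of these data known. Named were all RNAs of the Sm, U6-type and U3/U8/U13 lists, the 5 most-read of every other list, the 5 highest and 5 lowest mean ends, the 5 highest shares of A, U and mixed tails, and the 3 RNAs on either side of the read minimum. RNAs named beyond this rule (such as SNORA77B, SNORA51, SNORA44, SNORA48, SNORA70, SNORA3A, SNORA50C, RNU4-2 and RNU5 WT) were chosen after their values were seen. Of 88 gene identifiers 87 were found in GENCODE 44, and 48 of 50 RNAs had a gene end. Sequences were read from hg38 with pysam 0.24.0, and the last ACA within 10 bases and the last CTGA within 15 bases of a gene end were located. Libraries were compared pairwise with a chi-square test (scipy 1.17.1), tested on simulated data. Levels were also scaled with edgeR 4.0.16 TMM factors and DESeq2 1.42.0 size factors. Depleted libraries and the table's differences between conditions were not used.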

Additional observations from a re-analysis of the deposited data

How the results depend on the processing

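End positions, tails and shares of reads were recomputed under 256 alternatives, of which 132 left out 1 replicate each. With 3 replicates such a mean always stays within 1 SD, so those are read by their size: over the 31 named RNAs outside the 4 rows with uneven reads, levels moved by up to 1.24 times. Of the other 124 alternatives, 105 left the value within its tolerance (0.5 nt for ends, 1.5 times for counts, 1 SD for levels and class shares, a counting interval at 440 reads for tail shares) and 19 moved it. TMM and size factors moved the levels of the 31 RNAs by up to 1.02 times. RNAs within 1 nt of position 0 rose from 20 to 37 with the median end in place of the mean, and to 37 within 2 nt. With the median end, the class median became 0.5 nt for Sm-class and RNA polymerase III RNAs, −3 nt for pseudogene rows, −1 nt for other C/D snoRNAs, and 0 nt for U3 and U13, H/ACA snoRNAs and scaRNAs. The H/ACA snoRNAs ending 3 nt after ACA fell from 19 to 6 with the rounded mean end. Weighted by reads, the mean share of A tails was 33.03%. With the 7SL rows left out of the total, the share of reads was 32.3% for the Sm class, 2.11% for U6-type, 3.604% for pseudogene rows, 7.27% for U3 and U13, 2.92% for other C/D, 12.5% for H/ACA and 1.21% for scaRNAs. Counting AC024051.4 with the Sm class gave 24.1%, and AL162581.1 with the RNA polymerase III RNAs 54.9%. This is 1 of 5 kinds of alternative (13 of the 256) chosen after seeing the data. Without replicate 1 the share of the 2 other rows fell from 5.59% to 0.377%. No paired analysis was possible because all libraries used belong to 1 condition. Depth limits the tail shares: a share of 0 allows up to 2.65% in SNORA52, and end positions and tails have no spread over libraries.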
